A study of Caenorhabditis elegans with 8 samples.

Results

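The extracellular sheet that wraps the worm gonad was followed here through 10 of its genes, in dissected gonads of 3 Caenorhabditis elegans genotypes. The genes were emb-9, let-2, nid-1, ost-1, lam-1, lam-2, epi-1, unc-52, him-4 and pxn-2, which are 10 of the 46934 genes in the count files. They were chosen by name and with earlier results in view: emb-9 and ost-1 were known to lie above wild type in one mutant and below it in the other. Their differences between genotypes are therefore given as a description, although the members went through the fit with all other genes. No p-value of theirs is printed, and their calls are listed only as part of that description and are no support. After a filter on low counts 10302 genes were tested, and 9 of the 10 members passed, all except pxn-2.

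The groups were wild type (wt, replicates 3, 4 and 5), the mutant sin-3(syb2172) (replicates 3, 4 and 5) and the mutant hda-3(ok1991) (replicates 4 and 5), all young adults. SIN-3 is a scaffold on which a transcriptional co-repressor complex assembles, and HDA-3 belongs to the histone deacetylases that such complexes bring to chromatin. Each library came from the gonads of 9 to 12 animals, pooled, so a value is a mean over several animals, and both mutations were carried by the whole animal, soma included. RNA was amplified before sequencing by a Smart-seq2 type method made for small amounts of RNA. The labels call the tissue germline, but a dissected gonad also holds the somatic sheath around the germ cells. In such a mixture, fewer cells of a type and less RNA per cell cannot be told apart.

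A basement membrane is a thin matrix built on a network of type IV collagen and a network of laminin, which nidogen and perlecan join. Cells hold on to it through integrins and dystroglycan, and SPARC binds its collagen. In C. elegans the gonad is enclosed by such a membrane. Much of its type IV collagen is made by body wall muscle and reaches the gonad through the body fluid, a contribution that the RNA of dissected gonads does not report.

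The members lie on 5 chromosomes of the WBcel235 assembly. The gene emb-9 (WBGene00001263; chromosome III, 9336881 to 9344447) encodes the alpha 1 chain of type IV collagen, and let-2 (WBGene00002280; chromosome X, 16380597 to 16389340) encodes its alpha 2 chain. The SPARC gene is ost-1 (WBGene00003893; chromosome IV, 1107396 to 1110872), and the nidogen gene is nid-1 (WBGene00003738; chromosome V, 12910107 to 12917221). The laminin chains are encoded by lam-1 (beta; WBGene00002247; chromosome IV, 5173332 to 5183746), lam-2 (gamma; WBGene00016913; chromosome X, 7143846 to 7151239) and epi-1 (alpha; WBGene00001328; chromosome IV, 10666823 to 10679291). Perlecan is encoded by unc-52 (WBGene00006787; chromosome II, 14647321 to 14684456) and hemicentin by him-4 (WBGene00001863; chromosome X, 9717565 to 9753764). The peroxidasin gene pxn-2 (WBGene00004257; chromosome X, 10972164 to 10979286) encodes a peroxidase of the matrix, a class of enzyme that in mammals cross-links type IV collagen. All 10 are protein-coding genes, whose annotated exons cover from 1153 bases in ost-1 to 16719 bases in him-4. Exons of him-4 share 570 bases with the gene F15G9.5 on the other strand. The same overlap is 29 bases for epi-1, 14 for let-2, 10 for pxn-2 and 6 for unc-52.

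Reads on genes numbered 14550417 to 24389531 per library, of which ribosomal RNA took 41.8 to 79.0%. All 17 germ cell markers, such as pgl-1 and rme-2, had reads in all 8 libraries. Their summed level was 7127 to 9390 CPM (read counts scaled to a common, normalised library size) in wt, 3570 to 6384 in sin-3 and 4164 to 4345 in hda-3. The lower sums of the mutants depend on the normalisation factors. Without these factors, as shares of reads outside ribosomal RNA, the hda-3 sums lay within the wt range and the sin-3 sums overlapped it. A few abundant genes such as cgh-1 and rme-2 dominate this sum. The median log2 fold change of the 17 was -0.26 in sin-3 and -0.74 in hda-3, beside 0.12 and -0.02 over all genes tested. Reads of the sin-3 gene itself numbered 606, 616 and 1274 in wt, against 0, 2 and 1 in its own mutant. The hda-3 gene was at 28.1, 28.5 and 39.1 CPM in wt and at 13.9 and 18.7 CPM in the hda-3 libraries. The sin-3 replicate 3 library had the highest share of ribosomal RNA and the lowest normalisation factor (0.424), while sin-3 replicate 5 had the highest factor (2.30). Below, the values of single libraries always follow the replicate numbers, from 3 to 5 for wt and sin-3 and from 4 to 5 for hda-3.

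In wt gonads most members were scarce, and per kb of exon the RNA of SPARC stood far above the rest. Levels between genes are compared here as CPM per kb of exon. The gap depends on this division, since ost-1 has the fewest exon bases (1153). In CPM, ost-1 was at 17.3 ± 5.97, let-2 at 9.37 ± 5.12 and emb-9 at 6.85 ± 2.66 in wt. The wt ranges of ost-1 (10.8 to 22.6 CPM) and let-2 (4.23 to 14.5 CPM) overlapped, though ost-1 was higher in each library. How evenly reads covered long transcripts was not tested. The mean level of ost-1 was 15.003 ± 5.18 CPM per kb (SD, n = 3), above 73.7% of the genes tested. It was followed by let-2 at 1.61 ± 0.878 and emb-9 at 1.22 ± 0.473 CPM per kb, both below the median of 2.51 over the genes tested. Next came lam-1 at 0.474 ± 0.161 and nid-1 at 0.238 ± 0.0825 CPM per kb. The remaining levels were 0.0912 ± 0.0145 CPM per kb for unc-52, 0.0767 ± 0.0438 for lam-2, 0.0275 ± 0.0287 for him-4, 0.0253 ± 0.00929 for epi-1 and 0.0140 ± 0.0121 for pxn-2.

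Some neighbours in this order were separated in all 3 wt libraries. The lowest ost-1 level, 9.38 CPM per kb, was above the highest of let-2, 2.48. The lowest emb-9 level, 0.768, was above the highest of lam-1, 0.601, and the lowest nid-1 level, 0.151, was above the highest of unc-52, 0.101. The collagen chains let-2 and emb-9 overlapped, as did lam-1 and nid-1, unc-52 and lam-2, and each pair of neighbours from lam-2 down to pxn-2. The laminin chains were unequal, since lam-1 lay above lam-2 and epi-1 in each wt library. The lowest members rested on few reads: pxn-2 had 1, 0 and 2 reads in wt, epi-1 had 2, 4 and 7, and him-4 had 12, 2 and 4.

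**Figure D1:**
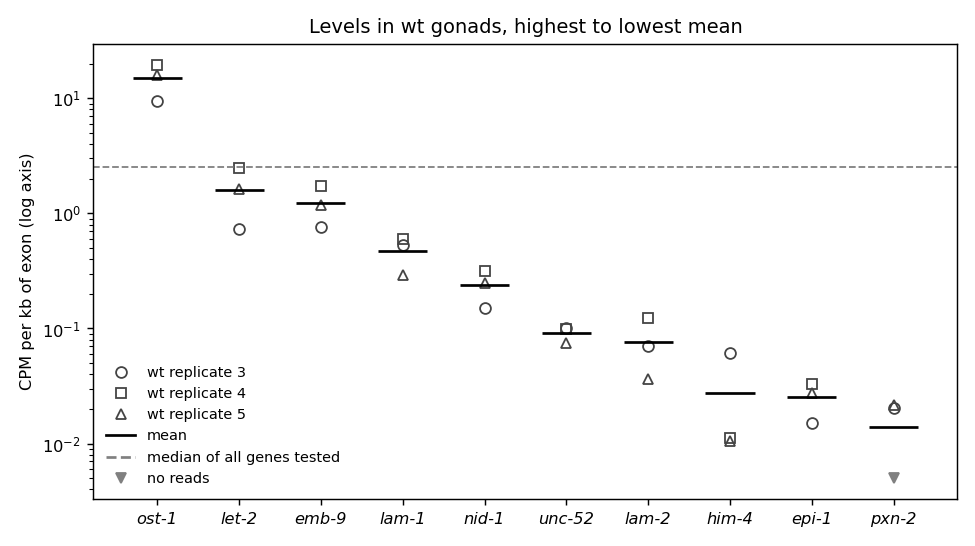
Level of each member in the 3 wt libraries, as CPM per kb of exon on a log axis; points are libraries, solid bars their means, and the dashed line the median of the genes tested (2.51). The ost-1 points (9.38 to 19.6) lie above the dashed line, and the points of the other 9 members lie below it.

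In normalised CPM, the type IV collagen and SPARC genes were higher in sin-3 gonads than in wt and lower in hda-3 gonads. For emb-9 the wt gonads gave 4.31, 9.61 and 6.64 CPM, the sin-3 gonads 15.4, 24.0 and 15.05 CPM, and the hda-3 gonads 3.0 and 2.66 CPM. Every sin-3 library lay above every wt library, and every hda-3 library below. The mean was 6.85 ± 2.66 CPM in wt (n = 3), 18.1 ± 5.06 in sin-3 (n = 3) and 2.83 ± 0.240 in hda-3 (n = 2). The fitted log2 fold change was 1.41 (SE 0.33) in sin-3 and -1.27 (SE 0.38) in hda-3.

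The SPARC gene lay on the same sides of wt. Levels of ost-1 were 10.8, 22.6 and 18.5 CPM in wt gonads, 45.2, 54.1 and 33.2 CPM in those of the sin-3 mutant, and 8.12 and 5.67 CPM in those of the hda-3 mutant. Again no library of either mutant reached into the range of wt in CPM. The log2 fold change was 1.35 (SE 0.29) in sin-3 and -1.32 (SE 0.34) in hda-3. The values of emb-9 and ost-1 are those by which the genes were picked, and both comparisons use the same 3 wt libraries. As shares of reads outside ribosomal RNA, without normalisation factors, both hda-3 libraries lay within the wt range for emb-9 and ost-1. Their place below wt thus depends on these factors, 0.548 to 0.960 in wt and 1.60 to 1.62 in hda-3. The sin-3 libraries lay above wt in these shares too.

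The second collagen chain, not named in the choice by its direction, had like values. The gene let-2 gave 4.23, 14.5 and 9.43 CPM in wt gonads, 17.3, 30.6 and 25.9 CPM in sin-3 gonads, and 4.55 and 3.82 CPM in hda-3 gonads. Its sin-3 libraries lay above all of wt, while hda-3 replicate 4 was slightly above wt replicate 3, so hda-3 and wt overlapped. Its log2 fold change was 1.40 (SE 0.38) in sin-3 and -1.16 (SE 0.44) in hda-3. Since let-2 is X-linked, its value stands beside a median log2 fold change of 0.70 over the 1187 X-linked genes tested in sin-3 and 0.32 in hda-3. The medians over autosomal genes were 0.05 and -0.05. The values of lam-2 and him-4 below, which are X-linked too, stand beside the same X medians.

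Nidogen had the same signs on fewer reads. The gene nid-1 had 9, 17 and 28 reads in wt gonads, which is 0.761, 1.59 and 1.24 CPM. The sin-3 gonads had 30, 102 and 81 reads of it (2.90, 3.96 and 1.55 CPM), and hda-3 gonads had 10 and 14 (0.259 and 0.601 CPM). In CPM both hda-3 libraries were below wt, and sin-3 replicate 5 was within the range of wt. These places depend on the normalisation factors. As shares of reads outside ribosomal RNA, hda-3 replicate 4 lay below wt, hda-3 replicate 5 within its range and every sin-3 library above it. The log2 fold change was 1.22 (SE 0.53) in sin-3 and -1.51 (SE 0.64) in hda-3.

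**Figure D2:**
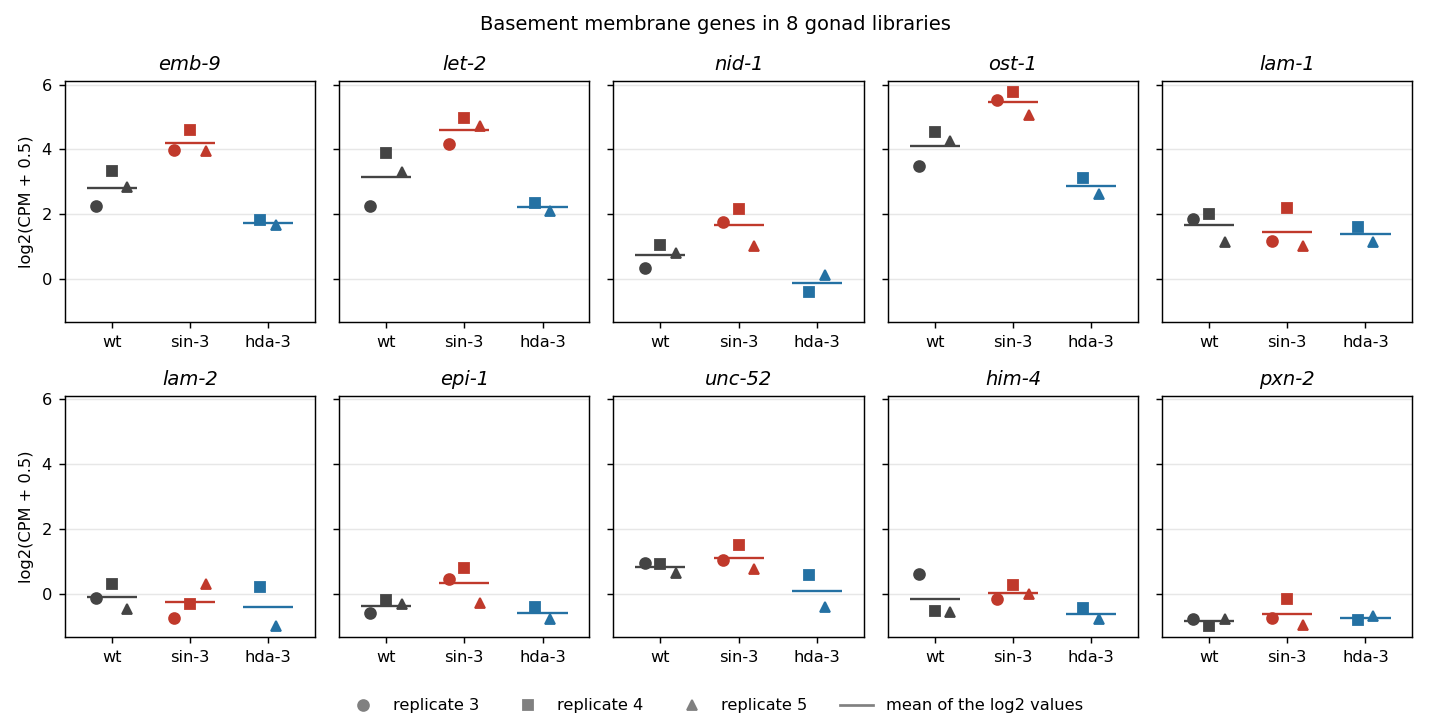
log2(CPM + 0.5) of the 10 members in each library; points are libraries, with the shape giving the replicate number, and bars are the means of the log2 values of each group. For emb-9 and ost-1 the sin-3 points lie above and the hda-3 points below all wt points, while the points of lam-1, lam-2 and pxn-2 overlap between the groups.

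The laminin chains differed among themselves: epi-1 had the signs of the collagen genes on few reads, whereas lam-1 and lam-2 had negative values in both mutants. The beta chain gene lam-1 stood at 3.13, 3.55 and 1.73 CPM in wt gonads, at 1.74, 4.04 and 1.55 CPM in sin-3 gonads, and at 2.53 and 1.72 CPM in hda-3 gonads. The 3 groups overlapped, with log2 fold changes of -0.17 (SE 0.48) in sin-3 and -0.37 (SE 0.54) in hda-3. With 1 library left out at a time the first ranged from -0.73 (without sin-3 replicate 4) to 0.14 (without sin-3 replicate 5), so even its sign is not fixed. Reads of the gamma chain gene lam-2 numbered 5, 8 and 5 for wt, 1, 8 and 38 for the sin-3 mutant, and 25 and 0 for the hda-3 mutant. Its log2 fold changes of -0.08 (SE 1.05) and -0.36 (SE 1.14) changed sign with single libraries, to 0.42 without wt replicate 4 and to 0.54 without hda-3 replicate 5. Reads of the alpha chain gene epi-1 numbered 2, 4 and 7 for wt, 9, 32 and 17 for the sin-3 mutant, and 10 and 2 for the hda-3 mutant, with log2 fold changes of 1.47 (SE 0.75) and -0.64 (SE 0.87). Its signs were those of nid-1, and like nid-1 it overlapped wt in sin-3, and in hda-3 too. The gene epi-1 passed the filter on low counts only through sin-3 libraries, which favours a value above 0 there.

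The large multidomain proteins and peroxidasin were low in every library. The perlecan gene unc-52 had 17, 15 and 24 reads from wt gonads, 16, 61 and 62 from sin-3 gonads and 38 and 6 from hda-3 gonads. Its log2 fold change was 0.40 (SE 0.54) in sin-3 and -1.01 (SE 0.63) in hda-3, and its hda-3 libraries (0.983 and 0.258 CPM) were below those of wt (1.06 to 1.44 CPM). This separation depends on the normalisation factors. As shares of reads outside ribosomal RNA, hda-3 replicate 4 lay above wt and hda-3 replicate 5 below. The hemicentin gene him-4 had 12, 2 and 4 reads from wt gonads, 4, 18 and 26 from sin-3 gonads and 9 and 2 from hda-3 gonads, with log2 fold changes of 0.28 (SE 0.79) and -1.38 (SE 0.94). Both values turn on wt replicate 3: without it they were 1.54 and -0.12, while without wt replicate 5 the first was -0.17. The peroxidasin gene pxn-2 had 1, 10 and 1 reads in sin-3 gonads and 3 and 3 in hda-3 gonads, so sin-3 replicate 4 held most of the former. For pxn-2, which was not tested, pooled reads gave a ratio of 2.04 for sin-3 over wt (95% exact interval 0.551 to 11.3, for counting error only) from 12 and 3 reads. The ratio of hda-3 to wt was 1.46 (0.311 to 9.00) from 6 and 3 reads.

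**Figure D3:**
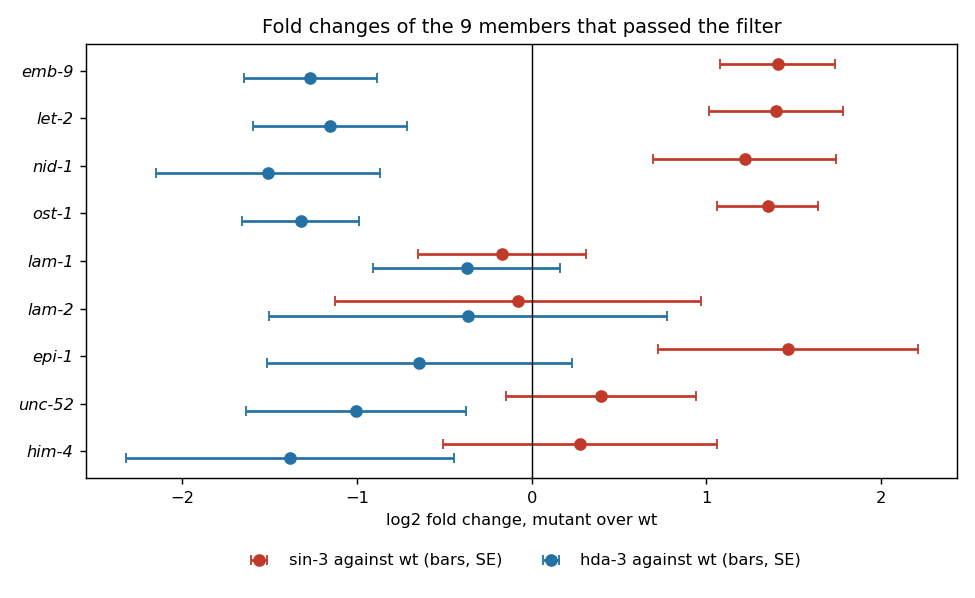
log2 fold change of each mutant over wt for the 9 members that passed the filter, with SE bars from the fit across all genes. The values of emb-9, let-2, nid-1 and ost-1 lie between 1.22 and 1.41 in sin-3 and between -1.51 and -1.16 in hda-3, whereas lam-1 and lam-2 lie within 1 SE of 0 in both.

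Across the 9 members that passed the filter, the median log2 fold change was 1.22 in sin-3, where the median over all genes tested was 0.12. It was -1.16 in hda-3, where that over all genes was -0.02. In the fit across all genes, emb-9, let-2 and ost-1 were called higher in sin-3 at an adjusted p under 0.05, where 2.68% of genes tested were called higher and 7.6% in either direction, and none was called lower. In hda-3, emb-9 and ost-1 were called lower, where 4.86% of genes tested were and 18.4% in either direction, and none was called higher. In CPM, all sin-3 libraries lay above all wt libraries for 3 members (emb-9, let-2 and ost-1), as for 14.7% of genes tested. Both hda-3 libraries lay below wt for 4 (emb-9, nid-1, ost-1 and unc-52), as for 26.7%. As shares of reads outside ribosomal RNA, without normalisation factors, none of these 4 had both hda-3 libraries below wt. These contrasts were used in the choice of genes, and nothing is read from the counts. The sin-3 count was 0 on leaving out replicate 3 or 5 of wt or replicate 4 of sin-3, and 2 (without let-2) on leaving out replicate 5 of sin-3 or either hda-3 library. The hda-3 count was 0 on leaving out replicate 4 or 5 of wt or replicate 5 of hda-3. It was 1 (ost-1) on leaving out replicate 4 of either mutant, with library factors from another method (RLE in place of TMM), with TMM factors computed on autosomal genes or with only the groups compared in the fit, and 3 (with let-2) on leaving out replicate 3 of wt or the filter on low counts. With 1 library left out at a time, the log2 fold change of emb-9 ranged from 1.17 to 1.72 in sin-3 and from -1.51 to -0.96 in hda-3, and that of ost-1 from 1.11 to 1.58 and from -1.59 to -1.08. Thus the signs of emb-9 and ost-1 were the same in each of these fits, while the calls were not.

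Set directly against each other, the mutants differed by 2.68 (SE 0.40) for emb-9, 2.56 (SE 0.46) for let-2, 2.73 (SE 0.64) for nid-1 and 2.67 (SE 0.35) for ost-1, in log2 units with sin-3 higher. Like the comparisons with wt, this one was fixed in part by the choice of emb-9 and ost-1, and nothing is read from its counts. These 4 were called in the fit across all genes, in which 2.59% of genes tested were called higher in sin-3 than in hda-3 and 15.3% in either direction. The call of nid-1 was lost without sin-3 replicate 4 or hda-3 replicate 4 (log2 fold changes 2.23 and 2.16). The libraries of sin-3 lay above those of hda-3 for these 4 and for epi-1, unc-52 and him-4, which makes 7 members, beside 17.5% of genes tested. For lam-1 the difference was 0.20 (SE 0.53) and for lam-2 0.29 (SE 1.08), and their libraries overlapped. The pattern for which emb-9 and ost-1 were chosen, here taken as every sin-3 library above and every hda-3 library below wt, was met by 81 of the genes tested, or 0.786%. Since the choice fixed it for these 2, the share is background and no support, and no other member met it.

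In the authors' deposited tables, the log2 fold change of emb-9 was 1.47 in sin-3 and -1.34 in hda-3, and that of ost-1 was 1.43 and -1.39. The authors' deposited tables gave 1.52 and -1.33 for let-2, and -0.18 and -0.12 for lam-1. For him-4 they gave 0.72 and 0.02, the second of which differs in sign from the value of the fit used here.

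Ratios between members within a library do not depend on how libraries are scaled. Per kb of exon, emb-9 had 1.06, 0.690 and 0.731 times the reads of let-2 in wt gonads, 0.922, 0.813 and 0.603 times in sin-3 gonads, and 0.684 and 0.723 times in hda-3 gonads. The ranges of the 3 groups overlapped. The ratio of ost-1 to the sum of both chains was 4.67 to 6.28 in wt, 4.04 to 6.86 in sin-3 and 4.35 to 5.35 in hda-3, and that of nid-1 was 0.0752 to 0.101, 0.0432 to 0.101 and 0.0391 to 0.106. The ratio of epi-1, on few reads, was 0.00791 to 0.0101 in wt, 0.00405 to 0.0135 in sin-3 and 0.00675 to 0.0175 in hda-3, and overlapped as well. The beta laminin chain differed here. The ratio of lam-1 to the sum of both collagen chains was 0.355, 0.143 and 0.104 in wt gonads, 0.0516, 0.0719 and 0.0368 in sin-3 gonads, and 0.326 and 0.257 in hda-3 gonads. All sin-3 libraries were below all others, and hda-3 lay within the range of wt. These ratios contain emb-9 and are given as a description.

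**Figure D4:**
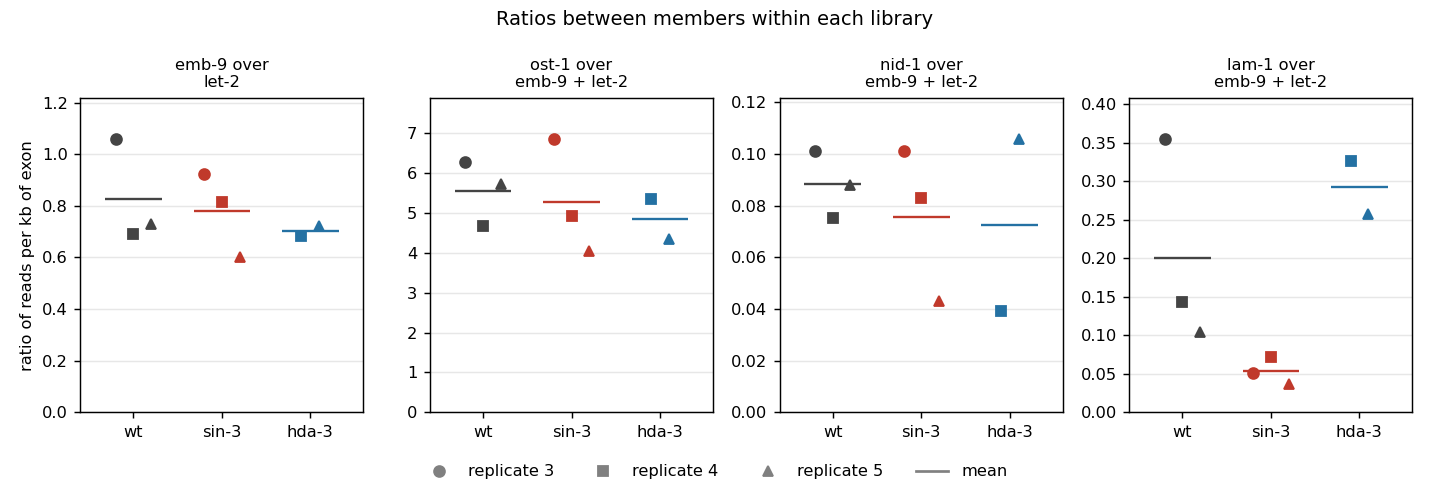
Ratios of reads per kb of exon between members in each library; points are libraries and bars the group means, and each axis starts at 0. The first 3 ratios overlap between the groups, whereas lam-1 over collagen is 0.0368 to 0.0719 in sin-3 and at least 0.104 elsewhere.

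The 10 genes together took 0.00393 to 0.00955% of reads outside ribosomal RNA in wt, 0.0173 to 0.0349% in sin-3 and 0.00464 to 0.00681% in hda-3. Of the reads on the 10 genes, emb-9, let-2 and ost-1 took 73.4 to 87.8% in wt, 89.3 to 92.7% in sin-3 and 75.8 to 80.9% in hda-3. The sum therefore mostly follows these 3 genes. In these shares, which use no normalisation factor, hda-3 lay within the range of wt.

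The genes closest in profile to emb-9 were members, which in part restates the choice, since emb-9 and ost-1 were picked for their shared directions over these libraries. By the root mean square difference in log2 CPM over the 8 libraries, each gene centred on its own mean, ost-1 was nearest of 5157 genes (0.160) and let-2 second (0.242). They were followed by fasn-1, the fatty acid synthase gene (0.380), F35E12.10 (0.401) and ent-2 (0.419). For ost-1 the nearest were emb-9 (0.160), let-2 (0.336), fasn-1 (0.407), ent-2 (0.436) and F49E2.5 (0.456). The log2 fold change of fasn-1 was 1.02 in sin-3 and -0.84 in hda-3.

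Other genes of matrix biology were taken from 5 lists with 79 genes, of which 61 passed the filter on low counts. The tests below are edgeR's quasi-likelihood test with p-values adjusted by Benjamini and Hochberg over all 10302 genes. In sin-3 against wt 2 of 61 were higher and 0 lower, in hda-3 against wt 0 were higher and 4 lower, and in sin-3 against hda-3 6 were higher and 0 lower. The shares of all genes tested were 2.68% higher and 4.92% lower, 13.5% and 4.86%, and 2.59% and 12.7%. Their median log2 fold changes were 0.48, -0.14 and 0.40, beside 0.12, -0.02 and 0.06 over all genes. Of the 6 genes called higher in sin-3 than in hda-3, zmp-4 and let-268 passed the filter only through sin-3 libraries, where they were high.

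Of the matrix components outside the 10 members, 5 of 11 passed the filter. The highest in wt was cle-1, which encodes type XVIII collagen, at 2.15 ± 1.39 CPM per kb (n = 3). It gave 5.49, 16.4 and 6.37 CPM in wt gonads and fell in hda-3 gonads to 2.25 and 3.39 CPM, both below wt (log2 fold change -1.74, SE 0.52, edgeR adjusted p = 0.0364). In sin-3 it was at 12.0, 17.2 and 8.27 CPM, above hda-3 by 2.15 (SE 0.52, edgeR adjusted p = 0.0129), while sin-3 overlapped wt. The fall was lost on leaving out replicate 4 of wt (-1.09, adjusted p = 0.132), replicate 4 of sin-3 (adjusted p = 0.0639) or either hda-3 library (adjusted p = 0.280 and 0.0790). It was lost too under RLE factors (adjusted p = 0.0586) and autosomal TMM factors (adjusted p = 0.0641). In shares of reads outside ribosomal RNA, hda-3 replicate 4 lay below wt for cle-1 and hda-3 replicate 5 within its range. The papilin gene mig-6 was higher in sin-3 than in hda-3 (2.51, SE 0.70, edgeR adjusted p = 0.0299). It was at 2.23, 5.95 and 1.18 CPM in sin-3 and 0.647 and 0.429 CPM in hda-3, and its call was lost without sin-3 replicate 4 (1.45, adjusted p = 0.207), wt replicate 4 (adjusted p = 0.0557), hda-3 replicate 4 (adjusted p = 0.117) or hda-3 replicate 5 (adjusted p = 0.203), and with only the 2 groups compared (adjusted p = 0.103). The difference of cle-1 between the mutants was lost without sin-3 replicate 4 (adjusted p = 0.0672) or hda-3 replicate 4 (adjusted p = 0.139).

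Of the receptor and adhesion genes, 18 of 22 passed, with a median log2 fold change of 0.92 in sin-3 and 0.41 in hda-3. All 18 values were above 0 in sin-3, where 5796 of 10302 genes tested were. In wt, pat-2, gpn-1 and let-805 were too low for the filter. They passed it only with the help of sin-3 libraries, which favours values above 0 in sin-3. In hda-3 14 of the 18 were above 0, where 5033 of all genes were. In sin-3, 1 of the 18 was called (2.68% of all genes were called higher), and 9 were higher at an unadjusted p under 0.05, as were 1437 of all genes. The called gene was ina-1, which encodes an integrin alpha subunit. It was at 2.03, 2.89 and 1.95 CPM in wt and 4.26, 5.17 and 7.43 CPM in sin-3 (1.32, SE 0.36, edgeR adjusted p = 0.0463). This call held without sin-3 replicate 3 and was lost without any other 1 library (adjusted p = 0.0716 to 0.150). The dystroglycan gene dgn-1 had its lowest levels in hda-3 gonads. They were 1.09 and 1.03 CPM there, 3.04, 5.13 and 3.63 CPM in wt gonads and 9.77, 9.83 and 3.76 CPM in sin-3 gonads. It fell in hda-3 (-1.88, SE 0.50, edgeR adjusted p = 0.0210), which was lost without wt replicate 4 (adjusted p = 0.0746), hda-3 replicate 4 (adjusted p = 0.134) or hda-3 replicate 5 (adjusted p = 0.109). The difference between the mutants was 2.86 (SE 0.51, edgeR adjusted p = 0.00189) and was called in each fit without 1 library (adjusted p up to 0.0214). In sin-3 against wt it was not called (0.98, SE 0.41, edgeR adjusted p = 0.155). As dgn-1 is X-linked, its values stand beside X medians of 0.70 in sin-3 and 0.32 in hda-3. The integrin beta subunit gene pat-3, highest of this list in wt at 6.53 ± 1.52 CPM per kb, was not called in any of the 3 comparisons (log2 fold changes 0.61, 0.88 and -0.27).

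Of 15 proteases and inhibitors 7 passed, and 8, such as zmp-6 with no reads in any library, were too low. The highest in wt was sup-17, which encodes an ADAM family metalloprotease, at 9.97 ± 1.83 CPM per kb. The called gene was zmp-4, a matrix metalloprotease gene at 1.06, 1.79 and 0.936 CPM in sin-3 and 0.259 and 0.172 CPM in hda-3 (2.50, SE 0.67, edgeR adjusted p = 0.0232). Leaving out sin-3 replicate 4 (adjusted p = 0.116), either hda-3 library (adjusted p = 0.134 and 0.208) or the filter on low counts (adjusted p = 0.0523) ended this call, and without sin-3 replicate 5 the gene did not pass the filter. Only the sin-3 libraries, where zmp-4 was highest, let it pass the filter, so the filter favoured this difference. In CPM its wt libraries, at 0.423, 0.560 and 0.266, lay between those of the mutants.

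All 16 genes of collagen synthesis and export passed, with a median of -0.13 in sin-3 and -0.31 in hda-3. The highest in wt was the protein disulphide isomerase gene pdi-3, at 142.5 ± 39.8 CPM per kb. The gene sec-16A.1, which acts at exit sites of the endoplasmic reticulum, was at 47.2, 47.3 and 47.5 CPM in wt, 70.2, 67.2 and 68.2 CPM in sin-3 and 28.1 and 33.4 CPM in hda-3. Like emb-9 and ost-1, it had every sin-3 library above and every hda-3 library below wt in CPM, as did zmp-4. Thus 2 of 61 genes of these lists met that pattern, beside 81 of 10302 genes tested (0.786%). The place of hda-3 below wt depends on the normalisation factors here too. As shares of reads outside ribosomal RNA, both hda-3 libraries lay above wt for sec-16A.1 and within the wt range for zmp-4. The difference of sec-16A.1 between the mutants was 1.16 (SE 0.19, edgeR adjusted p = 9.98e-04) and was called in each fit without 1 library (adjusted p up to 0.0424). Its fall against wt (-0.62, SE 0.18, edgeR adjusted p = 0.0359) was lost on leaving out any 1 library except sin-3 replicate 3 (adjusted p = 0.0617 to 0.414), under RLE factors (adjusted p = 0.0944), autosomal TMM factors (adjusted p = 0.119), without a filter (adjusted p = 0.282), with only the 2 groups compared (adjusted p = 0.0937) and by DESeq2 (adjusted p = 0.0910). Its difference between sin-3 and wt was not called (0.53, adjusted p = 0.0662). The gene pdi-1 fell in hda-3 (-0.99, SE 0.31, edgeR adjusted p = 0.0451), a call lost without any 1 of the wt and hda-3 libraries or sin-3 replicate 4 (adjusted p = 0.0661 to 0.307), under RLE or autosomal TMM factors (adjusted p = 0.0919 and 0.0963) and by DESeq2 (adjusted p = 0.0818). It was at 126 ± 29.4 CPM in wt (n = 3) and 63.5 ± 4.77 CPM in hda-3 (n = 2). In shares of reads outside ribosomal RNA, without normalisation factors, both hda-3 libraries lay within the wt range for pdi-1.

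The lysyl hydroxylase gene let-268, whose enzyme modifies type IV collagen, had 58 reads in sin-3 and 0 in hda-3. Taking a floor of 3 reads over the hda-3 group, it was at least 13.5-fold higher in sin-3 (edgeR adjusted p = 0.0273). Of the 58 reads, 45 were in sin-3 replicate 5, and without that library the bound was 7.44-fold. In wt it had 0, 0 and 8 reads, all in replicate 5, so no bound is given, and neither mutant was called against wt. Leaving out either hda-3 library ended the call (adjusted p = 0.189 and 0.122), and the gene did not pass the filter without sin-3 replicate 4 or 5. It thus passed only through sin-3 libraries, so the filter favoured this difference. All 15 genes of glycosaminoglycan synthesis passed. The highest in wt was sqv-4 (UDP-glucose dehydrogenase), at 94.2 ± 21.6 CPM per kb, and 1 was called, the chondroitin synthase gene sqv-5. It rose in sin-3 from 53.7 ± 15.7 to 96.0 ± 9.47 CPM (0.84, SE 0.22, edgeR adjusted p = 0.0424, n = 3 per group), which was lost on leaving out any 1 library except wt replicate 4 and sin-3 replicate 5 (adjusted p = 0.0509 to 0.149).

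**Figure D5:**
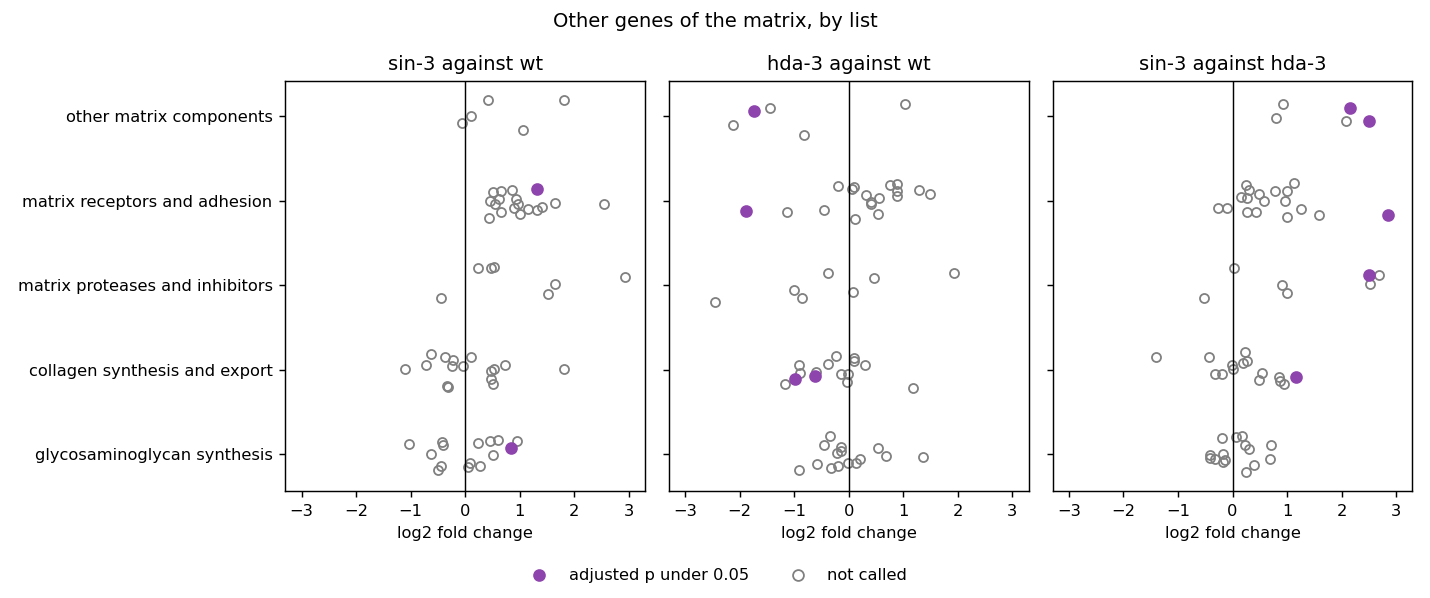
log2 fold change of each gene of the 5 matrix lists that passed the filter, in 3 comparisons; filled points are called at an adjusted p under 0.05, open points are not, and let-268 is left out where hda-3, in which it had 0 reads, is compared. All 18 receptor and adhesion genes lie above 0 in sin-3 against wt, and the called genes lie below 0 in hda-3 against wt. Of the 18, pat-2, gpn-1 and let-805 passed the filter only with the help of sin-3 libraries.

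Markers of cells that can make these proteins differed along with some of the values. The summed level of 18 body wall muscle markers was 141 to 220 CPM in wt and 286 to 429 CPM in sin-3, and in hda-3 replicates 4 and 5 it was 482 and 133 CPM. All 18 had reads in each library, and the defining factor hlh-1 was at 0.0429 to 0.580 CPM. The actin gene act-4 dominates this sum, with 30616 reads over all libraries against 41 for hlh-1. The sum separated sin-3 from wt, as emb-9 did, but in CPM its hda-3 values lay above and below the range of wt. Taken as shares of reads outside ribosomal RNA, both hda-3 sums lay above wt. In hda-3 emb-9 was at 3.0 and 2.66 CPM. How far the sum reflects body wall muscle was not tested. The summed level of 15 somatic gonad markers was 165 to 262 CPM in wt, 206 to 255 CPM in sin-3 and 122.2 to 175 CPM in hda-3. Abundant genes such as fln-1 dominate this sum. Over the 13 markers tested the median log2 fold change was 1.06 in sin-3 and -0.19 in hda-3. In sin-3 11 were above 0 and 1 was called higher, beside 5796 of 10302 genes tested above 0 and 2.68% called higher. In hda-3 6 were above 0, beside 5033 of all genes. There 1 was called higher and 2 lower, beside 13.5% and 4.86% of all genes. Between the mutants 4 were called higher in sin-3, beside 2.59% of all genes. The 17 muscle markers tested had medians of 0.91 in sin-3 and 0.64 in hda-3. Among the somatic gonad markers the sheath innexin gene inx-8 stood at 38.6, 77.4 and 19.03 CPM in wt gonads, 32.3, 42.4 and 19.4 CPM in sin-3 gonads and 5.35 and 5.11 CPM in hda-3 gonads. The other sheath innexin gene, inx-9, stood at 4.14, 12.6 and 3.72 CPM in wt gonads, 15.7, 17.4 and 9.34 CPM in sin-3 gonads and 1.81 and 1.12 CPM in hda-3 gonads. Both were thus lower in each hda-3 library than in any other. The non-muscle myosin gene nmy-1 was at 3.37 ± 1.0 CPM in wt, 14.7 ± 1.87 CPM in sin-3 and 7.43 ± 1.04 CPM in hda-3, the highest wt library being below all mutant ones. The distal tip cell gene lag-2 was at most 0.373 CPM, and ehn-3, a gene of the early somatic gonad, had 4 reads in all.

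Markers of the gut had another order. The sum of 17 intestine markers was 7.44 to 46.0 CPM in wt, 35.4 to 107 in sin-3 and 167 to 284 in hda-3, where the collagen genes were lowest. That of 14 epidermis and cuticle markers was 24.3 to 310 CPM in wt, 145 to 245 in sin-3 and 83.6 to 412 in hda-3, and overlapped between the groups. Other sums were at most 3.89 CPM for 7 pharynx markers, 25.2 to 46.1 CPM for 10 neuron markers and 26.4 to 49.7 CPM for 4 coelomocyte markers, of which cup-5 made up most. The part of these tissues in the values of the basement membrane genes was not tested.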

How the data were processed

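For each of 8 libraries the authors deposited a table with 1 whole-number count of reads for every gene, not normalised. The tools named in the submitters' processing notes are DESeq2 1.36.0, HTSeq 0.7.2, STAR 2.7.3a and fastp 0.20.1. The sources used here give neither genome build, annotation nor strand setting, so where genes overlap on opposite strands, the origin of a read cannot be told apart. Per the file headers, the authors' deposited comparison tables hold a mean of scaled counts (a signal), log2 fold changes with standard errors, a test score (the statistic) and p-values. Only their log2 fold changes were used. Of 46934 identifiers, 46923 are in the WBcel235 annotation (Ensembl release 115), which gave coordinates and exon lengths, and 44112 had a symbol. Lines that name no gene were left out: 1.06 to 2.27% of reads on no feature, 0.673 to 1.55% ambiguous and 3.03 to 5.57% not unique.

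Genes were kept by filterByExpr (minimum count 10, minimum total 15) and then entered edgeR's robust quasi-likelihood test (edgeR 4.0.16, R 4.3.3) with TMM factors and all 8 libraries in 1 model and Benjamini-Hochberg adjustment over 10302 genes. The SE is the size of the log2 fold change divided by the root of F. CPM uses TMM-scaled library sizes that include ribosomal RNA. The steps were tested on simulated counts. The labels call the replicates biological and independent, with 3 per strain; hda-3 has 2 here. The members and lists were chosen with earlier results of these data known. Named genes are the members, called genes of the 5 lists, the highest gene of each list in wt, and the 5 nearest profiles (genes of at least 5 CPM on average, prior count 2). Alternatives were other scalings, no filter, DESeq2 1.42.0, 2 groups only, a replicate block and leaving out each library. The labels name no molecular identifiers, so amplified reads are not independent molecules and intervals and floors cover counting error only.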

Additional observations from a re-analysis of the deposited data

How the results depend on the processing

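The order of the 10 members by level in wt was the same with the longest transcript as length and with ribosomal RNA reads removed, although the latter raised each level (ost-1 to 36.0 CPM per kb) by its smaller denominator. The signs of emb-9, let-2, nid-1 and ost-1 in each comparison held in all alternatives run. Counts of called genes moved more. In sin-3 against wt, 783 genes were called (276 higher, 507 lower), against 1374 without a filter and 1302 by DESeq2 (583 higher, 719 lower), and 200 to 1453 with 1 library left out. Those of the 5 matrix lists were 2, against 6 without a filter, 6 by DESeq2 and 0 to 4 with 1 library left out. In hda-3 against wt, 1891 genes were called (1390 higher, 501 lower), with 1048 to 2673 with 1 library left out. The split was 1469 and 238 under RLE factors and 1499 and 209 with TMM on autosomal genes, which moved the median of all genes from -0.02 to 0.12 and 0.17. Relative to these medians emb-9 and ost-1 stayed below 0. Matrix genes called in hda-3 were 4, against 1 under RLE factors, 1 with TMM on autosomal genes, 9 without a filter, 10 (5 higher, 5 lower) with only the 2 groups compared, and 0 to 11 with 1 library left out. Between the mutants they were 6, and 2 to 13 with 1 library left out; all genes called were 1575, and 1091 to 2198.

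With the replicate number as a block, genes called were 983 in sin-3, 1353 in hda-3 and 1351 between the mutants, and matrix genes called 2, 1 and 6. Members called were 3, 3 and 4, against 3, 2 and 4 without it, let-2 being called in hda-3 as well. The block ended the calls of ina-1 in sin-3 (adjusted p = 0.0515) and of cle-1, pdi-1 and sec-16A.1 in hda-3 (adjusted p = 0.0519, 0.0748 and 0.0548), by edgeR. Between wt and sin-3, deviations of same-numbered libraries correlated from -0.0908 to 0.109, and those of unlike numbers from -0.240 to 0.181. With 2 hda-3 libraries the deviations mirror each other, so the check cannot decide for hda-3. The numbers are therefore not known to pair the libraries. Members with under 30 reads in wt (lam-2, epi-1, him-4, pxn-2) are limited by depth. Without hda-3 replicate 4, lam-2 has 0 reads in hda-3 and no fold is given. The cause of the moves was not tested.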
